A study of Homo sapiens with 6 samples.

Results

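The genes that encode the core of the spliceosome and its main partner proteins were followed in TC28a2 cells, an immortalized human chondrocyte line, after treatment with 2 μM mocetinostat, a class I selective HDAC inhibitor, or with its solvent DMSO for 24 hours. The genes were picked by their symbols, without a cut on their values: SRSF genes, HNRNP genes, SNRP genes with a letter from A to G, SF3A and SF3B genes, U2AF genes, LSM genes, and PRPF genes, with pseudogenes left out. This gave 85 of the 60623 genes in the table, namely 12 SR, 25 hnRNP, 11 Sm and snRNP, 13 SF3 and U2AF, 11 LSM, and 13 PRPF genes. Raw counts of single RNA-Seq reads were available for 3 DMSO-treated and 3 mocetinostat-treated samples of this 1 line. The labels number these samples as replicates, the study describes them as independent experiments, and p-values measure the spread between these samples. Totals ranged from 4873426 to 11031132 counts with DMSO and from 1619344 to 5089542 counts with mocetinostat, which gave treated samples the lower precision for sparse genes. Of 12 chondrocyte markers, 8 passed the expression filter, SOX9 lay between 95.5 and 121.6 CPM (counts scaled to the size of the library) with DMSO, and CNMD had no counts in any sample. In DMSO-treated samples the chondrocyte markers summed to 117.2 to 141.4 CPM, against 4106 to 4977 CPM for 5 fibroblast markers, most of it COL1A1.

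Splicing removes introns from pre-mRNA. The U1 and U2 small nuclear ribonucleoproteins (snRNPs) recognize the ends of an intron, the U4/U6.U5 tri-snRNP joins them, and the assembled spliceosome is then rearranged into its catalytic form. U2AF2 and U2AF1 bind the polypyrimidine tract and the AG at the 3′ splice site, and the SF3A and SF3B complexes anchor the U2 snRNP at the branch point. The Sm proteins form a ring around the U1, U2, U4, and U5 RNAs, and the LSM2 to LSM8 proteins form the like ring on U6. SR proteins bind exonic enhancers and generally favor the use of nearby splice sites, whereas hnRNP proteins coat nascent RNA and often oppose it. Many SR and hnRNP genes are known to tune their own mRNA through exons that introduce a premature stop codon, which gene-level counts cannot show.

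Most of these mRNAs were lower after mocetinostat treatment. Of the 85 genes, 80 passed the expression filter and were tested. In the quasi-likelihood test of edgeR, with p-values adjusted over all 13966 genes tested (Benjamini-Hochberg), 64 of the 80 were lower at an adjusted p under 0.05, or 80.0%, where 31.4% of all genes tested were lower. Only *PRPF40B* and *HNRNPLL* were higher, or 2.50%, against 32.9% of all genes tested. The median log2 fold change of the 80 genes was -0.69, against -0.0021 over all genes tested, with a range from -1.74 for *U2AF2* to 1.14 for *PRPF40B*. The changes were moderate in size. With an absolute log2 fold change over 1 also required, the threshold of the study, 12 genes (15%, against 8.18% of all genes tested) were downregulated and 1 (1.25%, against 20.2%) was upregulated. In 63 of the 80 genes, or 78.8%, every mocetinostat-treated sample lay below every DMSO-treated sample, as it did in 32.8% of all genes tested. The 5 genes that were not tested, *U2AF1L5* and *HNRNPCL1* to *HNRNPCL4*, held at most 2 counts in any sample.

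Because splicing factors are well-expressed genes, the same counts were taken among the 8270 genes with a mean of at least 20 CPM over both conditions, a level that was set after seeing the data. Of the 72 splicing genes at that level, 61 were lower, or 84.7%, against 43.2% of all genes at that level. Past both thresholds, 11 of the 72 were downregulated, or 15.3%, against 9.18%. The median log2 fold change of all genes at that level was -0.17 and that of the 72 splicing genes was -0.73.

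**Figure D1:**
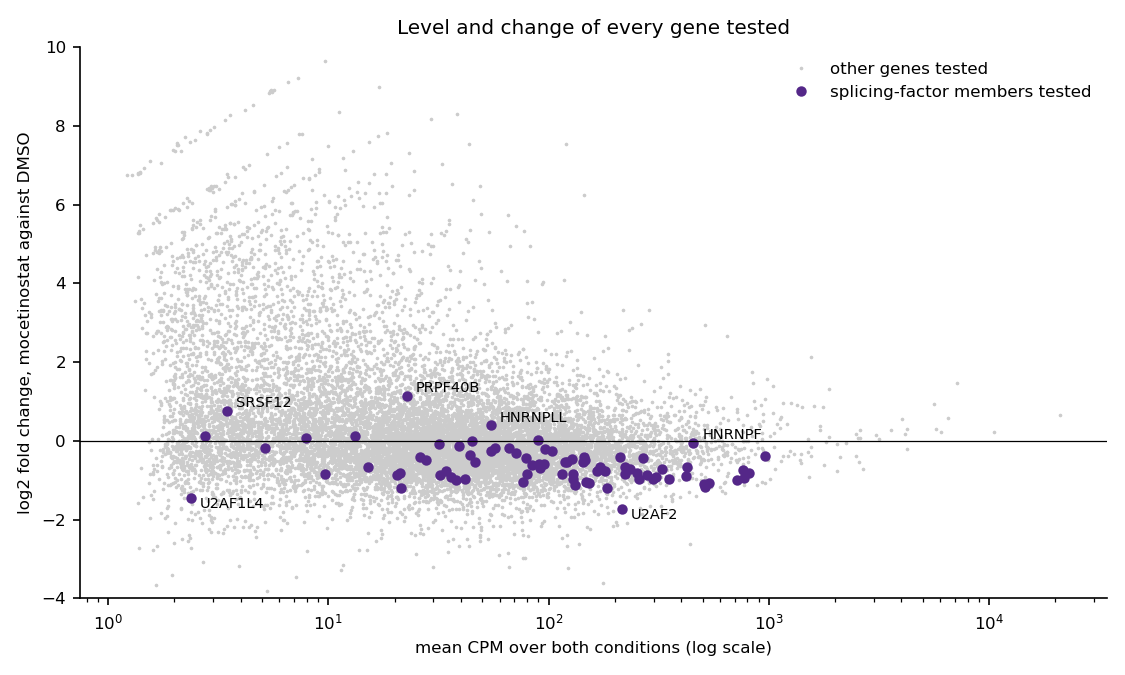
Mean level in CPM over both conditions (log scale) against the log2 fold change with mocetinostat for each of the 13966 genes tested (gray) and the 80 splicing genes tested (purple). Most splicing genes form a band below 0 at high levels, with *U2AF2* at -1.74 below it and *PRPF40B* at 1.14 above it.

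The direction is relative to the other genes in the same libraries, and the scaling set how many calls there were. *GAPDH* itself went from a mean of 3039 to 2111 CPM, a log2 fold change of -0.53. With libraries scaled by their *GAPDH* counts instead, the median over all genes moved to 0.53 and that of the splicing genes to -0.16, so that 31 splicing genes were lower and 13 higher. The median of the splicing genes lay 0.69 below that of all genes in either scaling. Another scaling shifts every gene by nearly the same amount, so this difference could not move with it. In bulk samples, fewer cells that express a gene and less of its RNA per cell cannot be told apart.

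**Figure D2:**
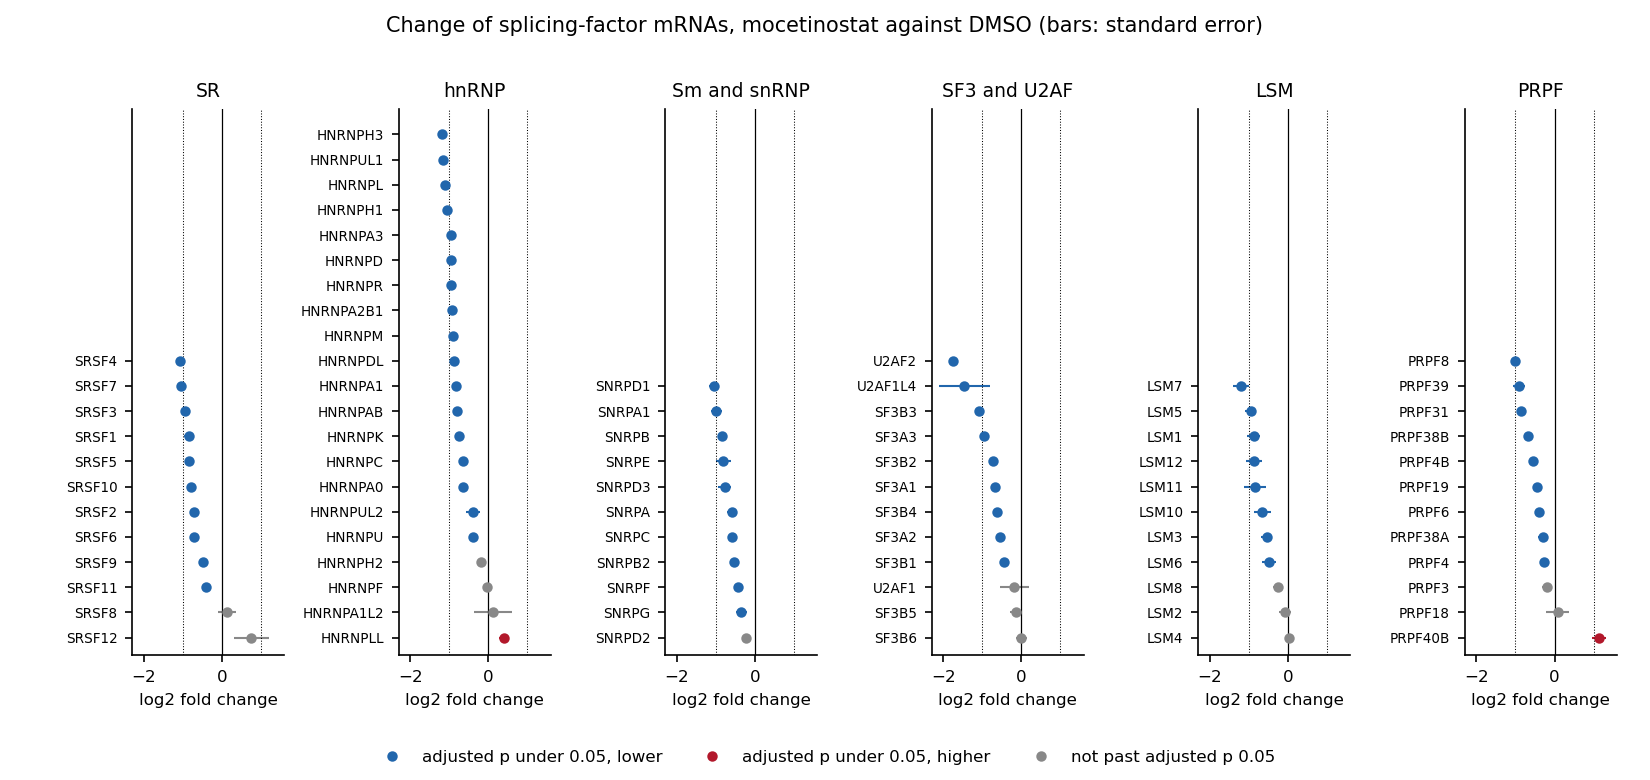
Log2 fold change with its standard error for 79 of the 80 genes tested, by family (12 SR, 21 hnRNP, 11 Sm and snRNP, 12 SF3 and U2AF, 11 LSM, and 12 PRPF genes); dotted lines mark -1 and 1. Blue points (63 genes) were lower and red points (*HNRNPLL* and *PRPF40B*) higher at an adjusted p under 0.05, and under *GAPDH* scaling 31 of all 80 were lower and 13 higher.

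Marker sums of other cell types were higher with treatment too, except that of the fibroblast markers. The 5 fibroblast markers summed to between 4106 and 4977 CPM with DMSO and between 3865 and 4230 CPM with mocetinostat, which overlap. The sum of 4 epithelial markers lay between 899.5 and 1083 CPM with DMSO and between 1935 and 1987 CPM with mocetinostat. The sum of 3 neuronal markers lay between 8.25 and 14.2 CPM with DMSO and between 28.6 and 49.6 CPM with mocetinostat. The chondrocyte markers summed to between 261.5 and 304.1 CPM with mocetinostat. The sum of 3 endothelial markers lay between 4.98 and 7.08 CPM with DMSO and between 16.1 and 22.8 CPM with mocetinostat. Of these, *CDH5* did not pass the test, at a log2 fold change of 0.12 (adjusted p = 0.834, edgeR). For 4 leukocyte markers the sum lay between 1.33 and 2.08 CPM with DMSO and between 5.35 and 11.2 CPM with mocetinostat. Their part in the results was not tested.

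As a share of all counts, the 85 genes together held 1.77%, 1.80%, and 1.87% with DMSO and 1.09%, 1.07%, and 1.09% with mocetinostat. The hnRNP genes made up the larger part, with 0.922%, 0.955%, and 1.02% of all counts with DMSO and 0.575%, 0.555%, and 0.579% with mocetinostat. The SR genes held 0.220%, 0.211%, and 0.206% with DMSO and 0.127%, 0.125%, and 0.121% with mocetinostat. Neither share overlapped between conditions.

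*U2AF2*, the large subunit of the U2 auxiliary factor, had the largest fold change of the 80 genes (ENSG00000063244, chromosome 19 from 55654146 to 55674716 of GRCh38, GENCODE release 44). It was measured at 281, 349, and 364 CPM with DMSO and at 102, 91.1, and 101 CPM with mocetinostat (replicates 1, 2, and 3, as in all lists of sample values). All 3 treated samples lay far below the lowest control. *U2AF2* thus fell from 331 ± 44.3 to 97.97 ± 5.96 CPM (SD, n = 3), to 29.9% of its DMSO level, a log2 fold change of -1.74 ± 0.096 (SE, adjusted p = 1.13e-26, edgeR). It was the only splicing gene to pass both thresholds in the downward direction under *GAPDH* scaling, at -1.21. Its partner *U2AF1* had few counts, 84, 25, and 20 with DMSO and 20, 10, and 12 with mocetinostat, and a log2 fold change of -0.18 (adjusted p = 0.694, edgeR). The assembly carries a near-identical copy, *U2AF1L5*, and reads that map to both places may be missing from either row, so the level of *U2AF1* is uncertain. *U2AF1L4*, a shorter relative of *U2AF1*, held 26, 25, and 13 reads in the controls and 1, 6, and 2 after mocetinostat. Its log2 fold change of -1.46 ± 0.65 (SE, adjusted p = 0.0433, edgeR) rested on single samples. The adjusted p was 0.248 without DMSO replicate 2, 0.527 without mocetinostat replicate 1, and 0.112 without mocetinostat replicate 3. With all samples it was 0.295 with DESeq2 and 0.0557 with the replicate number as a block in edgeR.

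The subunits of the SF3A and SF3B complexes did not change to the same extent. The 3 SF3A genes were lower, *SF3A3* at -0.97, *SF3A1* at -0.67, and *SF3A2* at -0.54 on the log2 scale, with adjusted p from 1.01e-13 to 8.30e-06 (edgeR). Of the 6 SF3B genes, 4 were lower. *SF3B3*, a scaffold of the complex, was measured at 718, 679, and 676 CPM with DMSO and 314, 367, and 301 CPM with mocetinostat. It fell to 47.2% of its DMSO level, a log2 fold change of -1.08 ± 0.076 (SE, adjusted p = 5.27e-21, edgeR). *SF3B2* and *SF3B4* were lower at -0.73 and -0.62. *SF3B1*, which clamps the branch point helix, had a log2 fold change of -0.44 (adjusted p = 4.45e-06, edgeR). The small subunit *SF3B6*, which contacts the branch point, was measured at 47.5, 44.4, and 41.4 CPM with DMSO and 42.03, 55.2, and 39.4 CPM with mocetinostat. The groups of *SF3B6* overlapped, and its log2 fold change was -0.0022 ± 0.14 (SE, adjusted p = 0.990, edgeR). *SF3B5*, another small subunit, likewise did not pass the test, at -0.14 (adjusted p = 0.411, edgeR). Within each sample the ratio of *SF3B3* to *SF3B6* was 15.1, 15.3, and 16.3 with DMSO and 7.45, 6.65, and 7.64 with mocetinostat, a ratio that does not depend on the scaling of the libraries. This pair was chosen after its values were seen and was not tested. Under *GAPDH* scaling, 3 genes of the SF3 and U2AF family were lower and 2, *SF3B5* and *SF3B6*, higher.

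Among the Sm and snRNP genes, 10 of 11 were lower (median log2 fold change -0.60, range -1.04 to -0.22). The ring of the Sm proteins is built from *SNRPB*, *SNRPD1*, *SNRPD2*, *SNRPD3*, *SNRPE*, *SNRPF*, and *SNRPG*. *SNRPD1* was measured at 94.9, 107, and 109 CPM with DMSO and 50.2, 48.3, and 51.4 CPM with mocetinostat, and it fell to 48.5% (log2 fold change -1.04 ± 0.12 SE, adjusted p = 5.02e-12, edgeR). *SNRPD2*, which pairs with SNRPD1 in the ring, was measured at 114, 93.5, and 99.2 CPM with DMSO and 77.3, 92.3, and 99.05 CPM with mocetinostat. Its groups overlapped, and with a log2 fold change of -0.22 ± 0.11 (SE, adjusted p = 0.0851, edgeR) it did not pass the test. It passed at 0.0342 without DMSO replicate 2, at 0.0435 without DMSO replicate 3, and at 0.0303 without mocetinostat replicate 3. The ratio of *SNRPD1* to *SNRPD2* was 0.835, 1.15, and 1.09 with DMSO and 0.649, 0.524, and 0.519 with mocetinostat, in a pair that was also chosen after its values were seen. Between these extremes, *SNRPB*, *SNRPE*, and *SNRPD3* had log2 fold changes of -0.85, -0.81, and -0.77, and *SNRPF* and *SNRPG* of -0.43 and -0.35. The call of *SNRPE* was lost after thinning to the smallest library (adjusted p = 0.0887, edgeR). The fall of *SNRPG* (adjusted p = 0.0234, edgeR) was not called without mocetinostat replicate 1, at an adjusted p of 0.217. Nor was *SNRPG* called with DESeq2 (0.0935), with at least 10 counts in every sample (0.0796), or after thinning (0.346). Rows of its 20 pseudogenes held 15.6% of the counts of gene and pseudogenes together, so that its level is uncertain to that extent.

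Among the mRNAs for proteins specific to the U1 and U2 particles, those of *SNRPA1*, *SNRPC*, *SNRPA*, and *SNRPB2* were lower, whereas *SNRNP70* did not pass the test (log2 fold change -0.14, adjusted p = 0.158, edgeR). *SNRPA1* of the U2 snRNP changed by -0.99 on the log2 scale (standard error 0.15, adjusted p = 3.02e-08, edgeR). *SNRPC* of the U1 snRNP, the most abundant of this family per kilobase of exon at 91.5 CPM per kilobase with DMSO, was measured at 106, 113, and 121 CPM with DMSO and 74.9, 83.7, and 70.04 CPM with mocetinostat. *SNRPC* did not overlap between conditions, with a log2 fold change of -0.58 (adjusted p = 3.86e-06, edgeR). *SNRPA* and *SNRPB2*, which bind the U1 and the U2 RNA with closely related domains, fell side by side, at -0.60 and -0.54 on the log2 scale. The ratio of *SNRPA* to *SNRPB2* differed by -0.042 on the log2 scale (standard error 0.15, exact permutation p = 0.8, n = 3 per condition). Under *GAPDH* scaling, 3 of the Sm and snRNP genes were lower and *SNRPD2* was higher.

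**Figure D3:**
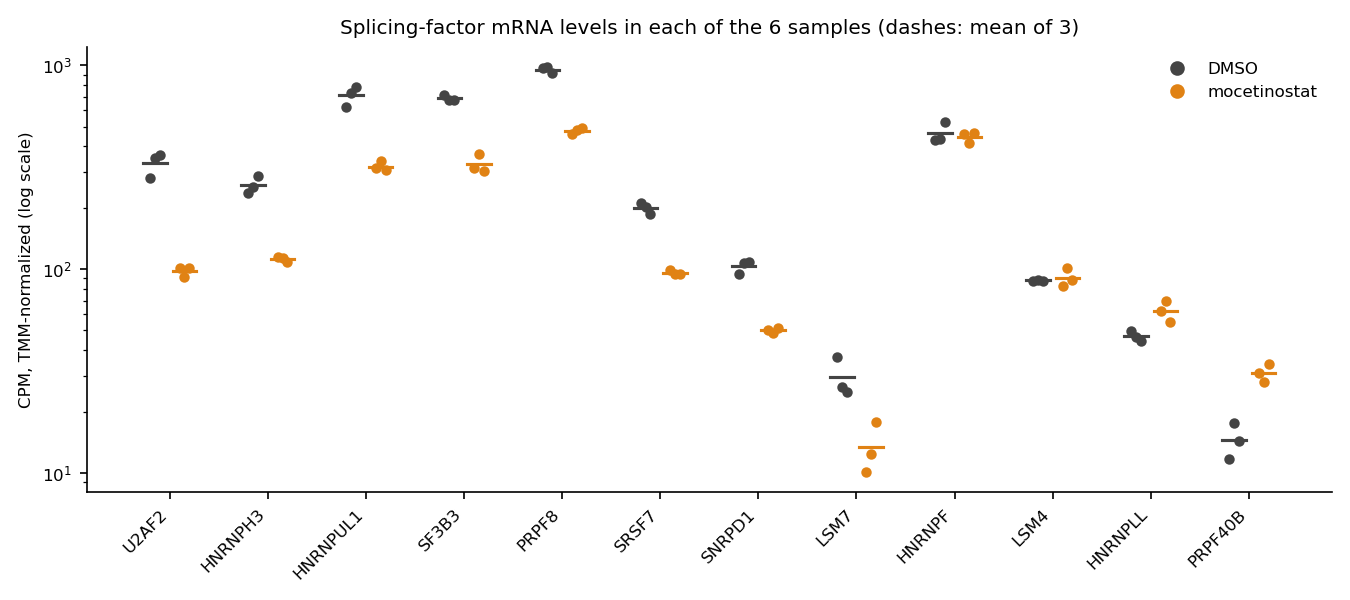
TMM-normalized CPM (log scale) of 12 splicing genes in the 3 DMSO-treated (gray) and 3 mocetinostat-treated (orange) samples, with a dash at each mean. The conditions are apart from *U2AF2* to *LSM7*, overlap for *HNRNPF* and *LSM4*, and are reversed for *HNRNPLL* and *PRPF40B*.

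In the LSM family, 8 of 11 genes were lower (median log2 fold change -0.66). *LSM7*, part of the ring on U6, was measured at 37.2, 26.2, and 24.9 CPM with DMSO and 10.1, 12.4, and 17.8 CPM with mocetinostat. In every treated sample *LSM7* was below the controls, a log2 fold change of -1.21 ± 0.21 (SE, adjusted p = 5.89e-07, edgeR). *LSM4* of the same ring was measured at 87.8, 88.7, and 87.7 CPM with DMSO and 82.7, 101, and 88.3 CPM with mocetinostat. Its groups overlapped, and its log2 fold change was 0.022 ± 0.11 (SE, adjusted p = 0.871, edgeR). The ratio of *LSM7* to *LSM4* was 0.424, 0.297, and 0.285 with DMSO and 0.123, 0.124, and 0.203 with mocetinostat, chosen after the values were seen. *LSM2* and *LSM4* had nearly the same level per kilobase of exon with DMSO, 30.9 and 30.8 CPM per kilobase, the highest means of the family. *LSM2* was measured at 32.7, 33.5, and 31.8 CPM with DMSO and 28.9, 26.6, and 37.3 CPM with mocetinostat and did not pass the test (log2 fold change -0.076, adjusted p = 0.695, edgeR). *LSM5*, *LSM3*, and *LSM6* of the ring had log2 fold changes of -0.96, -0.54, and -0.49, and *LSM12*, which belongs to neither ring, of -0.87. The call of *LSM6* (adjusted p = 0.0131, edgeR) was lost with DESeq2, at 0.0838, after thinning to the smallest library, at 0.192, without DMSO replicate 2, at 0.0558, and without mocetinostat replicate 1, at 0.241. The call of *LSM3* was lost after thinning (adjusted p = 0.0649, edgeR). Under *GAPDH* scaling only 2 LSM genes were lower and 2, *LSM2* and *LSM4*, were higher.

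One position tells both LSM rings apart: LSM8 marks the nuclear ring on U6, and LSM1 takes its place in the cytoplasmic ring that promotes mRNA decay. *LSM1* was measured at 37.6, 41.6, and 47.9 CPM with DMSO and 25.2, 14.9, and 26.1 CPM with mocetinostat, a log2 fold change of -0.87 ± 0.17 (SE, adjusted p = 4.55e-06, edgeR). *LSM8* was measured at 57.4, 55.8, and 67.2 CPM with DMSO and 55.3, 37.8, and 53.9 CPM with mocetinostat. It had a log2 fold change of -0.25 ± 0.13 (SE, adjusted p = 0.0869, edgeR), which passed at 0.0361 without DMSO replicate 1, at 0.0497 without DMSO replicate 2, and at 0.0463 without mocetinostat replicate 1. The ratio of *LSM8* to *LSM1* was higher in each treated sample, at 1.52, 1.34, and 1.40 with DMSO and 2.19, 2.53, and 2.06 with mocetinostat. Its difference was 0.67 on the log2 scale (standard error 0.10, exact permutation p = 0.1, n = 3 per condition, the smallest p that this design can give). The exons of *LSM1* are shared over 26.1% of their length with an antisense gene, and its part in the value was not tested.

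*LSM10* and *LSM11* replace a pair of Sm proteins in the U7 snRNP, which processes the 3′ ends of replication-dependent histone mRNAs. *LSM10* was measured at 20.4, 16.03, and 20.04 CPM with DMSO and 12.9, 8.06, and 13.7 CPM with mocetinostat, and *LSM11* at 14.3, 11.9, and 10.6 CPM with DMSO and 6.74, 8.06, and 6.22 CPM with mocetinostat. Both were lower without overlap, at -0.66 (adjusted p = 0.00670, edgeR) and -0.85 (adjusted p = 0.00518, edgeR) on the log2 scale. Each had 13 reads in mocetinostat replicate 2, and DESeq2 called neither (adjusted p = 0.0553 and 0.0567). The ratio of *LSM11* to *LSM10* overlapped between conditions, with a difference of -0.065 on the log2 scale (standard error 0.38, exact permutation p = 0.9, n = 3 per condition).

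Of the 13 PRPF genes, which mostly serve the tri-snRNP and spliceosome activation, 10 were lower, 1 was higher, and 2 did not pass the test (median log2 fold change -0.45), with 4 lower and 3 higher under *GAPDH* scaling. *PRPF8*, the scaffold around the catalytic RNA core and the most abundant of the family per kilobase of exon in the mean of the controls, was measured at 965, 978, and 915 CPM with DMSO and 459, 480.3, and 489 CPM with mocetinostat. Its level fell to 49.9% of the DMSO level without overlap, a log2 fold change of -1.002 ± 0.07 (SE, adjusted p = 4.30e-21, edgeR), just past the threshold of 1. Per kilobase, *PRPF6* exceeded *PRPF8* in DMSO replicate 3 (88.5 against 79.6 CPM per kilobase) and in the mocetinostat mean (59.7 against 41.4 CPM per kilobase). *PRPF31*, *PRPF4*, *PRPF6*, and *PRPF3*, which encode proteins of the tri-snRNP, had log2 fold changes of -0.85, -0.26, -0.40, and -0.19, and *PRPF3* did not pass the test (adjusted p = 0.197, edgeR). *PRPF19*, the ubiquitin ligase of the complex that bears its name, changed by -0.45 on the log2 scale and the kinase gene *PRPF4B* by -0.55. *PRPF39*, which associates with U1, was lower at -0.92, and *PRPF18*, which acts in the second catalytic step, did not pass the test at 0.077 (adjusted p = 0.834, edgeR). The calls of *PRPF4* and *PRPF38A* were marginal. *PRPF4* (adjusted p = 0.0231, edgeR) was not called without mocetinostat replicate 1, at 0.0673, and *PRPF38A* (adjusted p = 0.0268, edgeR) was not called without DMSO replicate 3, at 0.0808, or without mocetinostat replicate 2, at 0.126. With at least 10 counts in every sample their adjusted p was 0.110 and 0.109, and after thinning 0.308 and 0.0659 (edgeR). DESeq2 did not call *PRPF38A* (adjusted p = 0.0633). *PRPF38A* and its relative *PRPF38B* had a ratio of 0.659, 0.672, and 0.778 with DMSO and 0.946, 0.943, and 0.846 with mocetinostat, higher in every treated sample (log2 difference 0.38 ± 0.093 SE, exact permutation p = 0.1, n = 3 per condition).

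*PRPF40B*, which encodes a U1-associated protein related to the yeast factor Prp40, was the only gene of the family that rose. *PRPF40B* (ENSG00000110844, chromosome 12 from 49568218 to 49644666) held 129, 84, and 97 reads in the controls and 155, 45, and 83 reads after mocetinostat, or 11.7, 17.5, and 14.3 CPM and 30.7, 27.9, and 34.4 CPM. Every treated sample lay above the controls, a log2 fold change of 1.14 ± 0.19 (SE, adjusted p = 2.88e-07, edgeR). Without DMSO replicate 1 it was 0.96, still past the adjusted p but below the fold threshold. Antisense exons of *FMNL3* overlap 28% of the exon length of *PRPF40B*. *FMNL3* as a whole went from 96.7 to 75.2 CPM, a log2 fold change of -0.35. The part of the shared exons in the value of *PRPF40B* was not tested. Whether strand was used in counting is not given in the sources used here.

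The SR family fell almost as a whole, with 10 of 12 genes lower (median log2 fold change -0.75), and with 6 lower and 2 higher under *GAPDH* scaling. *SRSF4* and *SRSF7* passed both thresholds. *SRSF7*, whose protein carries a zinc knuckle, was measured at 209.7, 202, and 187 CPM with DMSO and 98.5, 94.2, and 94.1 CPM with mocetinostat, a log2 fold change of -1.06 ± 0.096 (SE, adjusted p = 7.82e-16, edgeR). *SRSF4* was measured at 182, 212, and 229 CPM with DMSO and 109.8, 91.7, and 91.6 CPM with mocetinostat, a log2 fold change of -1.06 ± 0.1 (SE, adjusted p = 2.46e-15, edgeR). Both genes were separated from the controls in all 3 treated samples. *SRSF3*, the smallest SR protein and the closest relative of SRSF7, was measured at 435, 396, and 381 CPM with DMSO and 229, 193, and 210.1 CPM with mocetinostat, a log2 fold change of -0.93 ± 0.082 (SE, adjusted p = 2.28e-16, edgeR). The ratio of *SRSF3* to *SRSF7* overlapped between conditions, with a difference of 0.12 on the log2 scale (standard error 0.059, exact permutation p = 0.2, n = 3 per condition).

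*SRSF1*, the prototype of the family, was measured at 119, 100.2, and 89.6 CPM with DMSO and 62.6, 48.3, and 57.2 CPM with mocetinostat, a log2 fold change of -0.85 ± 0.12 (SE, adjusted p = 5.55e-09, edgeR). Its closest relative *SRSF9* was measured at 156, 168, and 186 CPM with DMSO and 121, 133, and 114 CPM with mocetinostat, a log2 fold change of -0.47 (adjusted p = 1.72e-05, edgeR). Both were lower in all treated samples, and their ratio overlapped between conditions (log2 difference -0.40 ± 0.25 SE, exact permutation p = 0.3, n = 3 per condition). *SRSF6* was measured at 244, 211, and 190.4 CPM with DMSO and 131, 147, and 119 CPM with mocetinostat, and the ratio of *SRSF4* to *SRSF6* overlapped too (log2 difference -0.39 ± 0.24 SE). *SRSF5* and *SRSF11* had log2 fold changes of -0.84 and -0.41. Antisense exons of *GATC* overlap 43.6% of the exon length of *SRSF9*, and those of *MFSD11* overlap 27.7% of that of *SRSF2*; their part in these values was not tested.

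The SR genes that did not fall were the sparsely expressed ones. *SRSF2*, the most abundant SR gene per kilobase of exon at 97.6 CPM per kilobase with DMSO, was measured at 289, 297, and 285 CPM with DMSO and 171, 191, and 167 CPM with mocetinostat (log2 fold change -0.72 ± 0.085 SE, adjusted p = 1.42e-11, edgeR). *SRSF8*, a retrogene derived from *SRSF2*, was measured at 15.2, 9.58, and 12.1 CPM with DMSO and 11.7, 14.9, and 16.2 CPM with mocetinostat and did not pass the test (log2 fold change 0.13, adjusted p = 0.635, edgeR). The ratio of *SRSF2* to *SRSF8* was lower in each treated sample, at 14.5, 12.8, and 10.3 against 18.9, 30.6, and 23.4 with DMSO. Similarly, *SRSF10*, which represses splicing when dephosphorylated, was measured at 201, 226, and 205 CPM with DMSO and 126, 125, and 116 CPM with mocetinostat (log2 fold change -0.78, adjusted p = 2.18e-11, edgeR). Its relative *SRSF12* held 40, 6, and 17 reads in the controls and 26, 10, and 5 reads after mocetinostat, with a log2 fold change of 0.76 ± 0.45 (SE, adjusted p = 0.139, edgeR) that did not pass. The ratio of *SRSF10* to *SRSF12* was 54.1, 167, and 78.8 with DMSO and 23.98, 19.9, and 53.7 with mocetinostat, with a precision set by the few reads of *SRSF12*.

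The hnRNP family held the most abundant mRNAs, with 17 of 21 genes tested lower (median log2 fold change -0.82), and 13 lower and 3 higher under *GAPDH* scaling. *HNRNPH3*, *HNRNPUL1*, *HNRNPL*, and *HNRNPH1* passed both thresholds. *HNRNPUL1*, which binds the DNA damage response machinery as well as RNA, was measured at 627, 733, and 781 CPM with DMSO and 313, 337, and 305 CPM with mocetinostat, a log2 fold change of -1.17 ± 0.078 (SE, adjusted p = 3.34e-22, edgeR). *HNRNPUL2* was measured at 30.1, 27.9, and 31.2 CPM with DMSO and 24.8, 21.1, and 20.7 CPM with mocetinostat, a log2 fold change of -0.40 ± 0.17 (SE, adjusted p = 0.0374, edgeR). The call of *HNRNPUL2* was marginal: the adjusted p was 0.0508 without DMSO replicate 1, 0.0681 without DMSO replicate 3, 0.0572 without mocetinostat replicate 2, and 0.106 without mocetinostat replicate 3. The ratio of *HNRNPUL1* to *HNRNPUL2* was lower in every treated sample, at 12.6, 15.9, and 14.6 against 20.7, 26.2, and 24.9 with DMSO. A readthrough gene on the same strand overlaps 44.3% of the exon length of *HNRNPUL2*, so that its counts are uncertain.

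The H and F group binds G-rich runs and was split in its response. *HNRNPH3* was measured at 236, 252, and 286 CPM with DMSO and 114, 113, and 109 CPM with mocetinostat, a log2 fold change of -1.20 ± 0.093 (SE, adjusted p = 6.49e-19, edgeR). *HNRNPH1* was measured at 680.0, 710.1, and 776 CPM with DMSO and 349, 321, and 364 CPM with mocetinostat, a log2 fold change of -1.06 ± 0.075 (SE, adjusted p = 5.87e-21, edgeR). In both genes the conditions were wide apart. *HNRNPH2*, the X-linked paralog of *HNRNPH1*, was measured at 75.6, 69.8, and 66.9 CPM with DMSO and 62.6, 54.5, and 69.2 CPM with mocetinostat, overlapping, with a log2 fold change of -0.18 (adjusted p = 0.196, edgeR). The ratio of *HNRNPH1* to *HNRNPH2* was 8.98, 10.2, and 11.6 with DMSO and 5.57, 5.88, and 5.25 with mocetinostat, a difference of -0.87 on the log2 scale (standard error 0.12, exact permutation p = 0.1, n = 3 per condition). *HNRNPF* was measured at 429, 434, and 526 CPM with DMSO and 459, 418, and 464 CPM with mocetinostat. It did not pass the test, at a log2 fold change of -0.047 ± 0.078 (SE, adjusted p = 0.610, edgeR), and was higher by 0.48 under *GAPDH* scaling.

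*HNRNPF* changed its place among the splicing genes in level per kilobase. Per kilobase of exon, the order of levels with DMSO was *HNRNPK* (166, 164, and 172 CPM per kilobase in the 3 samples), *HNRNPA1* (148, 153, and 165), *HNRNPAB* (144, 161, and 151), and *HNRNPF* (131, 133, and 161). Neighbors in this order overlapped in their ranges, whereas *HNRNPK* lay above *HNRNPF* in all 3 samples. With mocetinostat, *HNRNPF* was first at 140.3, 128, and 142 CPM per kilobase, above *HNRNPK* at 103, 94.7, and 102, *HNRNPA1* at 91.1, 76.6, and 95.1, and *HNRNPAB* at 81.6, 98.3, and 81.99, and no treated sample of those 3 genes reached the lowest of *HNRNPF*. The ratio of the counts of *HNRNPK*, which binds C-rich tracts, to those of *HNRNPF* was 2.21, 2.15, and 1.87 with DMSO and 1.27, 1.29, and 1.25 with mocetinostat; this pair was chosen after its values were seen. *U2AF2* moved from rank 10 to rank 38 of the 80 genes in level per kilobase. The order between genes depends on the union of all annotated exons, 3273 bases for *HNRNPF* and 5700 for *HNRNPK*. In mean CPM with mocetinostat, *HNRNPF* (447) lay below *HNRNPU* (831), *HNRNPA1* (587), *HNRNPK* (568), *HNRNPA2B1* (531), and *PRPF8* (476).

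*HNRNPL* and *HNRNPLL*, paralogs that bind CA-rich elements, moved in opposite directions. *HNRNPL* was measured at 178, 186, and 181 CPM with DMSO and 85.2, 73.1, and 89.5 CPM with mocetinostat, a log2 fold change of -1.12 ± 0.10 (SE, adjusted p = 3.71e-16, edgeR). *HNRNPLL* was measured at 49.8, 46.6, and 44.4 CPM with DMSO and 62.3, 69.4, and 54.7 CPM with mocetinostat, a log2 fold change of 0.39 ± 0.13 (SE, adjusted p = 0.00641, edgeR). The samples of the conditions did not overlap for either gene. The ratio of *HNRNPL* to *HNRNPLL* fell from 3.58, 3.97, and 4.07 with DMSO to 1.37, 1.05, and 1.64 with mocetinostat, a difference of -1.54 on the log2 scale (standard error 0.19, exact permutation p = 0.1, n = 3 per condition). The rise of *HNRNPLL* was not called by DESeq2 (adjusted p = 0.0655), after thinning (0.0673), or without an expression filter (0.487, log2 fold change 0.14).

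Promoter sequence is given for these paralogs, which moved in opposite directions, and for *HNRNPH1* and *HNRNPF*, relatives of which *HNRNPH1* fell and *HNRNPF* did not pass the test. For each gene 1 RefSeq start site was used, and any others were not searched. Each stretch comes from the 250 bases before that site on GRCh38.p14, on the minus strand and written 5′ to 3′. It is the longest part of that window without an exon annotated in GENCODE. It is chr19:38852348-38852597 for *HNRNPL*, chr2:38603037-38603167 for *HNRNPLL*, chr5:179634785-179635034 for *HNRNPH1*, and chr10:43408883-43409089 for *HNRNPF*, or 250, 131, 250, and 207 bases. Capitals mark matches on either strand to any of 7 motifs. The GC box, which SP1-type factors bind, was searched as GGGCGG, and its matches may overlap each other. The CCAAT box, known as a site of the factor NF-Y, was searched by the letters of its name. The site of ETS-type factors, common in promoters of housekeeping genes, was searched as CCGGAAG. The E-box, bound by MYC and related factors, was searched as CACGTG, and the NRF1 site was searched as GCGCATGC. The TATA box, which places the start site in a small part of promoters, was searched as TATAAA, and the cyclic AMP response element of CREB-type factors was searched as TGACGTCA.
HNRNPL: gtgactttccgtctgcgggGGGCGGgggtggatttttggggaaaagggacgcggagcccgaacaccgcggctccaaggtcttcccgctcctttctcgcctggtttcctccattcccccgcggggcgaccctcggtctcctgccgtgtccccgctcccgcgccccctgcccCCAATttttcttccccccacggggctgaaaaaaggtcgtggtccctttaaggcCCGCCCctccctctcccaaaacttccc
HNRNPLL: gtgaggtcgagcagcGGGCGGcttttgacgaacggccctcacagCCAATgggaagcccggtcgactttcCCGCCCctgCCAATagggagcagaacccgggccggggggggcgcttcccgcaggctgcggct
HNRNPH1: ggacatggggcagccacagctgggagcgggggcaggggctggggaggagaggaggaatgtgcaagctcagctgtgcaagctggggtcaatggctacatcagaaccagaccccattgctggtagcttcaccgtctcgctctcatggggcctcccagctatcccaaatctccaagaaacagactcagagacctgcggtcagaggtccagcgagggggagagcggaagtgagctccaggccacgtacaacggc
HNRNPF: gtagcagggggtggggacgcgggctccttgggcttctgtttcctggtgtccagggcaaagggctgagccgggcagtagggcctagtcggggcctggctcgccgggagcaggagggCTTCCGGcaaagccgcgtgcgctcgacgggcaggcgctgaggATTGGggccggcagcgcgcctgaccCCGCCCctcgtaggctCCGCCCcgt
The stretch of *HNRNPL* held 2 GC boxes and 1 CCAAT box, that of *HNRNPLL* 2 of each, and that of *HNRNPF* 2 GC boxes, 1 CCAAT box, and 1 ETS-type site. That of *HNRNPH1* held none of the 7 motifs. It lies directly before the outermost annotated end of the gene (base 179634784), so a promoter at another start site would not be covered. The stretches differ in length, and those of *HNRNPLL* and *HNRNPF* end 108 and 25 bases before the start site. In its whole window of 250 bases, *HNRNPLL* held an ETS-type site as well, outside the stretch printed. Over the whole windows of 250 bases, RefSeq sequences were matched by symbol for 70 of the 80 genes tested. CCGGAAG was present in 22 of these 70 windows, or 31.4%, against 15.8% of the windows of all genes tested and 8.82% of all RefSeq windows of this length. It was present in 16 of 55 genes that were lower (29.1%) and in 6 of 15 that were not (40.0%). CCAAT was present in 42.9% of the 70 windows, against 35.4% for all genes tested, and GGGCGG in 60.0%, against 68.8%. The TATA box was present in 8.57%, against 4.95%, and the E-box in 10%, against 8.77%. The NRF1 letters were present in 7.14%, against 4.79%, and the cyclic AMP response element in 0 of the 70, against 2.92%. These matches describe letters in the windows and not factor binding.

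The remaining abundant hnRNP genes fell together. *HNRNPA1* was measured at 989.8, 1025, and 1105 CPM with DMSO and 609.8, 513, and 637 CPM with mocetinostat, a log2 fold change of -0.82 ± 0.072 (SE, adjusted p = 1.54e-16, edgeR). *HNRNPA2B1*, its partner in the core hnRNP particle, was measured at 952, 1003, and 1104 CPM with DMSO and 540.2, 506, and 546 CPM with mocetinostat, a log2 fold change of -0.94 ± 0.071 (SE, adjusted p = 1.38e-19, edgeR). The pair kept nearly equal counts, with a ratio of 1.04, 1.02, and 1.00 with DMSO and 1.13, 1.01, and 1.17 with mocetinostat (log2 difference 0.11 ± 0.063 SE). *HNRNPK* was measured at 946, 935, and 982 CPM with DMSO and 585, 539.8, and 579 CPM with mocetinostat, a log2 fold change of -0.75 (adjusted p = 1.54e-15, edgeR). *HNRNPD*, which encodes the AU-rich element binding protein AUF1, and its neighbor *HNRNPDL* on chromosome 4 fell to a similar extent, at -0.96 and -0.87. *HNRNPD* was measured at 414, 472, and 513 CPM with DMSO and 222, 247, and 252 CPM with mocetinostat, and *HNRNPDL* at 351, 363, and 374 CPM with DMSO and 212, 203, and 179 CPM with mocetinostat. Their ratio overlapped between conditions (log2 difference -0.079 ± 0.14 SE, exact permutation p = 0.7, n = 3 per condition).

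The rest of the family ranged more widely. *HNRNPA3*, *HNRNPR*, *HNRNPM*, *HNRNPAB*, *HNRNPC*, and *HNRNPA0* had log2 fold changes of -0.97, -0.96, -0.90, -0.81, -0.66, and -0.65, and each was lower without overlap. *HNRNPU*, which encodes a nuclear scaffold protein, held the most counts of the 85 genes in each sample, 11023, 5279, and 8075 with DMSO and 4194, 1342, and 2006 with mocetinostat, and changed less, at -0.40 ± 0.068 (SE, adjusted p = 5.63e-07, edgeR). *HNRNPA1L2*, a retrogene copy of *HNRNPA1*, held 21, 9, and 28 reads in the controls and 15, 5, and 6 reads after mocetinostat and did not pass the test (adjusted p = 0.839, edgeR). The ratio of *HNRNPA1* to *HNRNPA1L2* was 495, 519, and 262 with DMSO and 198, 160.5, and 246 with mocetinostat. Another gene on the same strand overlaps 100% of the exon length of *HNRNPA1L2*, so that its counts and this ratio are uncertain. Reads of *HNRNPA1* and its copies can be split by the counting, and the 75 pseudogene rows of *HNRNPA1* held 2.95% of the counts of gene and pseudogenes together. Antisense exons of *NFE2L2* overlap 53.6% of the exon length of *HNRNPA3*. *NFE2L2* as a whole had a log2 fold change of 0.030, and the part of this overlap in the value of *HNRNPA3* was not tested. Further overlaps were found for *SRSF1* (32.7% of its exon length, same strand), *U2AF1L4* (24.8%, same strand), *PRPF31* (22.0%, antisense), *HNRNPH2* (15.8%, same strand), and *HNRNPU* (15.6%, antisense), and their part in the values was not tested.

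Across 16 paralogous pairs, the within-sample ratio did not overlap between conditions in 9: *SRSF2*/*SRSF8*, *SRSF10*/*SRSF12*, *HNRNPA1*/*HNRNPA1L2*, *HNRNPH1*/*HNRNPH2*, *HNRNPL*/*HNRNPLL*, *HNRNPUL1*/*HNRNPUL2*, *LSM8*/*LSM1*, *PRPF38A*/*PRPF38B*, and *U2AF1*/*U2AF2*. The exact two-sided permutation p was 0.1 for each of them, which is the smallest value that 3 against 3 samples can give, so that none can pass 0.05, and 0.178 after adjustment over the 16 pairs (Benjamini-Hochberg). In 8 of these 9, all but *LSM8*/*LSM1*, the ratio moved in favor of the paralog with fewer reads, a count made after the values were seen. Among the pairs that overlapped, only *HNRNPD*/*HNRNPDL* moved that way (log2 difference -0.079). *SRSF1*/*SRSF9* (-0.40), *SRSF3*/*SRSF7* (0.12), *SRSF4*/*SRSF6* (-0.39), *HNRNPA1*/*HNRNPA2B1* (0.11), *SNRPA*/*SNRPB2* (-0.042), and *LSM11*/*LSM10* (-0.065) moved the other way. *SRSF12*, *HNRNPA1L2*, and *U2AF1* had few reads. The ratio of *U2AF1* to *U2AF2* went from 0.0274, 0.0152, and 0.00838 to 0.0399, 0.0690, and 0.0501, with the doubt about *U2AF1* given above. The doubt about *HNRNPA1L2* given above holds for its pair.

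**Figure D4:**
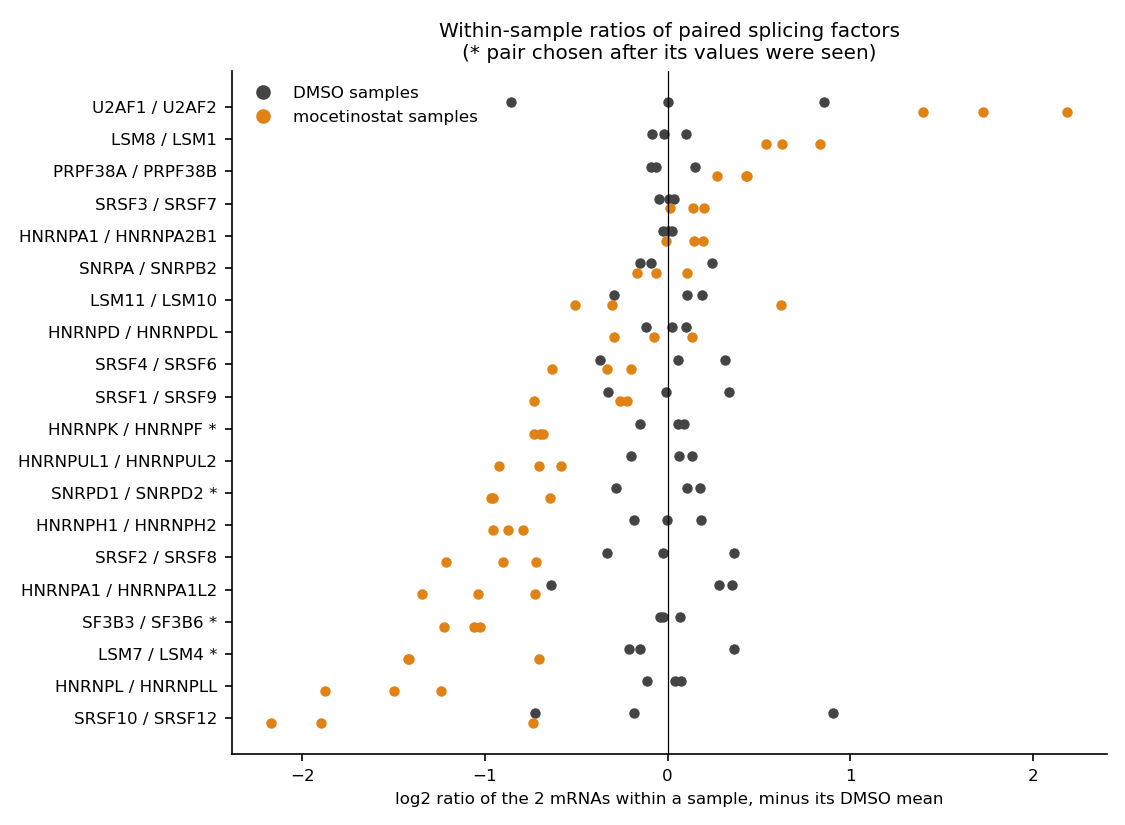
Log2 ratio of paired splicing factors within each sample, minus the mean of that ratio in the 3 DMSO-treated samples, for 16 paralogous pairs and 4 pairs (asterisk) chosen after their values were seen. The *SRSF10*/*SRSF12* and *HNRNPL*/*HNRNPLL* ratios lie lowest with mocetinostat, at mean differences of -1.60 and -1.54, the *U2AF1*/*U2AF2* ratio highest at 1.77, and the *HNRNPA1*/*HNRNPA2B1* ratio overlaps between conditions.

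Other genes of the splicing pathway were examined in 8 lists with 166 gene names, of which 155 rows were tested. In these lists 98 genes were lower (63.2%) and 19 higher (12.3%), with a median log2 fold change of -0.48, against 31.4% lower and 32.9% higher of all genes tested; under *GAPDH* scaling 38 were lower and 52 higher. The medians and counts of the lists below are relative to the median of all genes. Among SR kinases and SR-related proteins, 17 of 19 were lower and 1 higher (median -0.63). *SRRM2* and *SON*, the large scaffold proteins of nuclear speckles, had log2 fold changes of -1.12 and -1.17, *PNN* of -1.03, and *BCLAF1* of -1.22. The kinase gene *CLK3*, the only one higher in this list (0.28, adjusted p = 0.0360, edgeR), was called in only 1 of the 6 fits that left out a sample. Its adjusted p lay between 0.0561 and 0.159 in the other 5, where DMSO replicate 2 or 3 or any one of the mocetinostat replicates was left out.

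Among other snRNP-associated proteins, 19 of 30 were lower and none higher (median -0.39), with *PUF60* at -1.20, *PHF5A*, a further subunit of SF3B, at -1.16, and *PDCD7* of the U11/U12 particle at -1.01. *SNRPN*, the most raised of that list at 0.71, did not pass the test (adjusted p = 0.139, edgeR). In the list of PRPF19 complex and catalytic-step proteins, 17 of 26 were lower and none higher (median -0.49), from *CWC15* at -1.20, *ISY1* at -1.12, *CWC27* at -1.08, and *DHX35* at -1.05 to *CTNNBL1* at 0.054, which did not pass. Of 16 genes for the SMN complex and snRNP assembly, 11 were lower and 1 higher (median -0.68). *COIL*, the marker protein of Cajal bodies, went from 43.2 ± 4.27 to 14.9 ± 2.69 CPM (SD, n = 3; log2 fold change -1.49 ± 0.17 SE, adjusted p = 1.14e-11, edgeR), and *DDX20*, *PRMT5*, and *GEMIN4* had log2 fold changes of -1.13, -1.01, and -1.01. *GEMIN8* was higher at 0.73 (adjusted p = 0.00428, edgeR), which DESeq2 did not call. Of 7 exon junction complex genes, 5 were lower, with *MAGOH* at -1.37 and its paralog *MAGOHB* at -1.08. *EIF4A3*, the helicase that clamps the complex on RNA, did not pass the test (0.17, adjusted p = 0.108, edgeR). *EIF4A3* was called higher with at least 10 counts in every sample (adjusted p = 0.0178, edgeR) and after thinning (0.0236).

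Among other hnRNP-type proteins, 17 of 23 rows tested were lower and 2 higher (median -0.51). *RBMX*, *RBM3*, *DAZAP1*, *SYNCRIP*, and *SFPQ* were among those past both thresholds, at -1.31, -1.30, -1.27, -1.01, and -1.01; of the pair of rows named *MATR3*, which share exons, 1 passed as well. *PCBP3* was higher, from 4.16, 5.41, and 5.16 CPM with DMSO to 24.98, 33.5, and 27.4 CPM with mocetinostat, a log2 fold change of 2.54 ± 0.24 (SE, adjusted p = 2.40e-15, edgeR). For histone pre-mRNA processing, 3 of 9 genes were lower (33.3%, near the 31.4% of all genes tested) and 2 higher (median -0.12), from *CPSF2* at -1.38 to the exonuclease gene *ERI1* at 0.66.

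By counts and median, the list of tissue-regulated splicing regulators was the exception among the lists. Of its 25 genes tested, 13 were higher and 9 lower, with a median log2 fold change of 0.41. Past both thresholds, 11 were upregulated, which is 44%, and 1 was downregulated. Of all genes tested, 32.9% were higher, 31.4% lower, and 20.2% upregulated past both thresholds, against 52% higher and 36% lower in this list. The upregulated genes had few reads in DMSO-treated samples. The summed level of the whole list was lower with treatment, at 2646, 2648, and 2577 CPM with DMSO and 2143, 2113, and 2108 CPM with mocetinostat. Of the 35 genes in this list, 25 passed the expression filter. A gene with few reads in the controls could pass the filter only by being high after mocetinostat. The share upregulated and the median of this list therefore depend in part on the filter. So do the calls of such genes, among them *NOVA2*, *ELAVL3*, and *RBM20*. *NOVA2*, a neuronal splicing regulator, held 5, 1, and 7 reads in the controls and 203, 82, and 113 reads after mocetinostat, and its level went from 0.564 ± 0.423 to 45.96 ± 5.34 CPM (SD, n = 3; log2 fold change 6.24 ± 0.30 SE, adjusted p = 8.97e-30, edgeR). *ELAVL3*, an RNA-binding protein gene of neurons, held 9, 4, and 13 reads in the controls and 275, 65, and 99 reads after mocetinostat (log2 fold change 5.29, adjusted p = 1.21e-28, edgeR). *RBM20*, a regulator of titin splicing in heart, held 7, 1, and 10 reads in the controls and 103, 32, and 42 reads after mocetinostat (log2 fold change 4.56, adjusted p = 1.43e-17, edgeR; 5.18 without DMSO replicate 3). These genes were at or near the detection limit in the controls and clearly detected in all treated samples. *CELF5* held 1, 2, and 2 reads in the controls and 67, 22, and 30 after mocetinostat, and *CELF2* held 2, 3, and 2 and 21, 4, and 7, so that no fold is given for either. *NOVA1* held 2, 2, and 5 reads in the controls and 34, 5, and 13 after mocetinostat, with a log2 fold change between 3.09 (without DMSO replicate 1) and 4.23 (without DMSO replicate 3) when 1 sample was left out. *MBNL3* held 1, 0, and 6 reads in the controls and 11, 4, and 7 after mocetinostat, and its log2 fold change lay between 2.21 and 4.81 without the same samples. *ELAVL2*, *KHDRBS3*, *SRRM3*, and *RBM24* had log2 fold changes of 2.41, 2.20, 2.01, and 1.31. The sums of neuronal markers given above were also higher in treated samples. *TIA1*, a ubiquitous member of the list, was downregulated at -1.17 (adjusted p = 4.46e-11, edgeR).

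**Figure D5:**
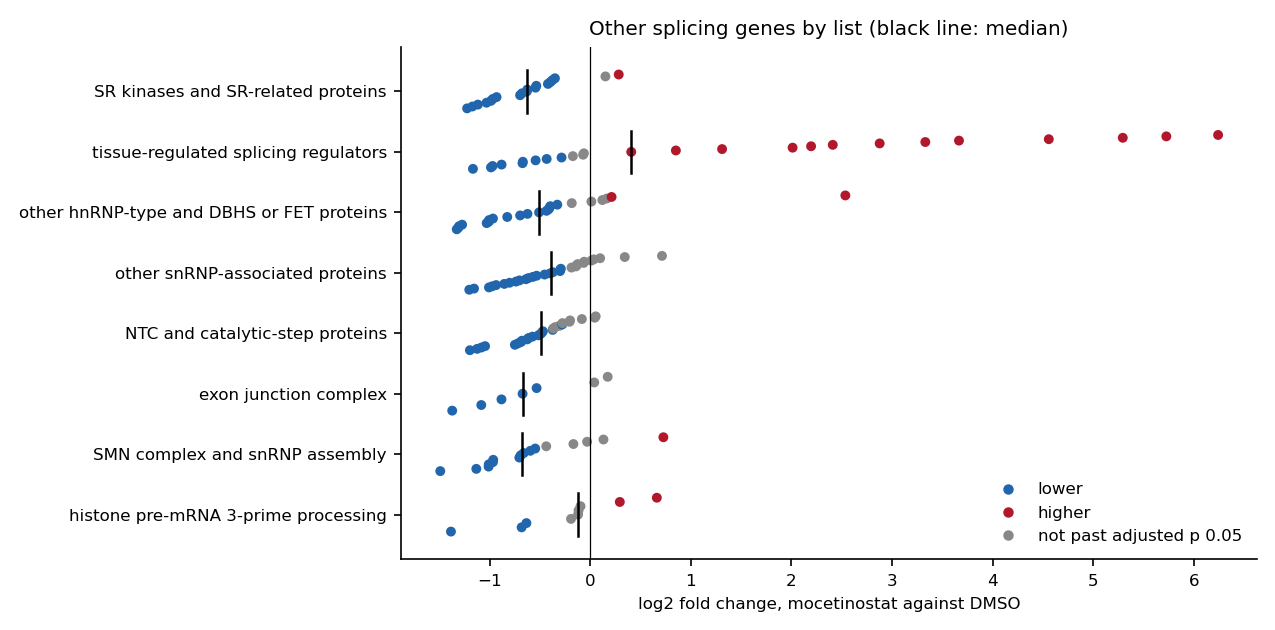
Log2 fold change of the other splicing genes tested, by list, with the median of each list as a black line; blue and red mark an adjusted p under 0.05. The medians lie between -0.68 and -0.12 in 7 lists and at 0.41 for the tissue-regulated regulators, where *NOVA2* reaches 6.24; *GAPDH* scaling moves the median of all genes to 0.53.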

How the data were processed

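RNA-Seq was performed by the authors on total RNA from mocetinostat- and DMSO-treated TC28a2 cells (n = 3 per condition). The deposited table holds unnormalized counts for 60623 genes, in whole reads. Per the labels and the study's methods, the authors trimmed adapters, removed ribosomal RNA reads, aligned single reads to GRCh38 with STAR version 2.6.1d, and assigned them to genes with featureCounts version 1.6.4. Whether the counting used strand, and how reads with several matches were treated, is not given in the sources used here. Columns were matched to samples by name.

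TMM factors, filterByExpr at its default minimum count of 10 (13966 genes kept), and the quasi-likelihood test of edgeR version 4.0.16 (R version 4.3.3, limma 3.58.1) were used, with treatment as the only term. Adjustment of p-values (Benjamini-Hochberg) ran over all genes tested. Standard errors were derived from the log2 fold change and the F statistic. CPM used TMM-scaled library sizes; levels per kilobase were divided by the union of exons in GENCODE release 44, to which 99.5% of gene identifiers matched. Ratios of paralogs used CPM plus 0.1 and exact two-sided permutation tests (scipy 1.17.1). Replicates differed by more than sampling noise (chi-square per degree of freedom from 1.93 to 7.95). Totals per sample (1619344 to 11031132 counts) set the precision, and reads carry no molecular identifiers.

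The members and lists were chosen with earlier results of these data known. Genes with values in each sample are those past both thresholds, the extremes and the most abundant gene of each family, *LSM1*, *LSM8*, *LSM10*, *LSM11*, and the paralogous pairs; the other lists name genes past both thresholds and the extremes. The values of 2 genes are not reported here, though counts and medians include them. Alternatives were DESeq2 version 1.42.0, RLE factors, library size only, *GAPDH* scaling, no filter, at least 10 counts in every sample, the replicate number as a block, thinning to the smallest library, and each sample left out. The level minimum of 20 CPM and 4 pairs were added after seeing the data.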

Additional observations from a re-analysis of the deposited data

How the results depend on the processing

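The number of splicing genes called lower stayed within 1.5 times of 64 in all alternatives but *GAPDH* scaling (31), between 57 and 70. The number higher was 2, against 13 under *GAPDH* scaling and 1 with DESeq2, without a filter, and after thinning. Past both thresholds, the 12 downregulated genes became 1 under *GAPDH* scaling, 36 without a filter (where the median of all genes was -0.25), 6 with at least 10 counts in every sample, and 7 after thinning, and between 11 and 17 when 1 sample was left out. The 1 upregulated gene became 2 under *GAPDH* scaling and 0 without a filter, and lay between 0 (without DMSO replicate 1) and 1 when 1 sample was left out. Among the other splicing genes, 52 were higher and 38 lower under *GAPDH* scaling, against 19 and 98; past both thresholds, 0 were lower under *GAPDH* scaling, 41 without a filter, and 17 after thinning, against 26, and 5 were higher with at least 10 counts in every sample, against 12. In each of the settings the median of the splicing genes tested stayed 0.62 to 0.71 below that of all genes. RLE factors, library size only, and *GAPDH* scaling shift all genes nearly alike, so this difference could not move in those settings.

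Of the splicing genes called under the TMM or *GAPDH* scaling, 19 changed sign under *GAPDH* scaling: *LSM2* (0.46), *LSM6* (0.049), *PRPF19* (0.077), *PRPF3* (0.35), *PRPF38A* (0.23), *PRPF4* (0.27), *PRPF6* (0.13), *SF3B1* (0.093), *SF3B5* (0.40), *SF3B6* (0.54), *SRSF11* (0.13), *SRSF9* (0.055), *SNRPD2* (0.32), *SNRPF* (0.11), *SNRPG* (0.19), *HNRNPF* (0.48), *HNRNPH2* (0.36), *HNRNPU* (0.13), and *HNRNPUL2* (0.14). *LSM8* (0.28) and *U2AF1* (0.37), called under neither, changed sign too; the scaling moves the median of all genes to 0.53.

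Deviations of same-numbered samples from their condition means showed correlations from -0.016 to 0.012 over all genes tested. Sampling noise of sparse genes can bring such values near 0. They cannot tell whether same-numbered samples shared an experiment. With the replicate number as a block, 63 splicing genes were lower, 2 higher, and 11 downregulated past both thresholds. Depth limits *U2AF1*, *U2AF1L4*, *SRSF12*, *HNRNPA1L2*, and *PRPF18*, with under 100 counts in every sample.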
